A study of Mus musculus with 8 samples.

Results

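The 6 genes described here encode interferon beta (Ifnb1), both chains of the type I interferon receptor (Ifnar1 and Ifnar2), both chains of the interferon gamma receptor (Ifngr1 and Ifngr2) and the second chain of the interleukin-10 receptor (Il10rb). They were chosen by symbol among the 54146 genes of each library, and all 6 were found in all 8 libraries. RNA-seq was performed on primary mouse astrocytes in 4 groups of 2 biological replicates: the control KD and the GSTM1 KD were each studied in a basal state and after 6 h of TNF-α at 50 ng/ml. Glial cells came from the cortices of C57BL/6 pups at postnatal days 2 to 5, pooled in flasks, and all 4 groups carried a lentiviral vector and had been selected with puromycin. The vector encoded short hairpin RNA, against Gstm1 in GSTM1 KD or non-silencing in control KD, and the sample labels name no second hairpin. Astrocytes were enriched by shaking off microglia and oligodendrocyte lineage cells and by keeping the CD11b-negative fraction.

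Interferon beta is a secreted type I interferon. It binds a receptor made of IFNAR1 and IFNAR2, whose kinases TYK2 and JAK1 phosphorylate STAT proteins, which act with IRF9 to switch on antiviral genes. Interferon gamma, the type II interferon, binds IFNGR1, which holds JAK1, and IFNGR2, which holds JAK2. IL10RB is a shared chain: it completes the receptors for IL-10, IL-22 and the type III interferons. In the brain, astrocytes respond to both type I and type II interferon, and the Ifnb1 promoter is a classic example of a site where NF-κB and interferon regulatory factors act together.

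Gstm1, the targeted gene, lay between 208 and 391 CPM (counts scaled to a common library size with TMM factors) in the control KD libraries and between 22.9 and 31.1 CPM in the GSTM1 KD libraries. The expected counts summed to between 17349676 and 34434633 per library. Summed over 8 astrocyte markers, the level was 2942 and 6733 CPM in control KD and 5810 and 8703 CPM in GSTM1 KD in the basal state, and 2998, 6826, 5973 and 8501 CPM in the same order after stimulation. Replicate 1 of control KD was therefore the lowest in both states, and the knockdowns overlapped. Within each replicate number GSTM1 KD was the higher. Of these markers only S100b passed, as lower in GSTM1 KD in both states (log2 fold change -1.44, adjusted p = 0.0269, and -1.71, adjusted p = 0.0387, edgeR's quasi-likelihood test). Of the 8, 5 had positive log2 fold changes in the basal state and 4 after stimulation. Among these were Gfap (1.10 and 1.08), Aldh1l1 (1.05 and 1.22) and Slc1a2 (0.67 and 0.49), which did not pass. The sum of 8 microglia markers was 6.29 and 2.34 CPM in control KD and 1.76 and 0.994 CPM in GSTM1 KD in the basal state, without overlap. After stimulation it was 6.47, 1.75, 2.56 and 1.3 CPM in the same order, with overlap but lower in GSTM1 KD within each replicate number. No microglia marker had more than 63.3 counts in a library, which was the value of Csf1r, and the sum was highest in both replicate 1 libraries of control KD. Of 5 fibroblast and pericyte markers, the GSTM1 KD libraries had less Col1a2 in both states (-1.13, adjusted p = 0.0352, and -0.99, adjusted p = 0.0250) and more Pdgfrb after stimulation (0.81, adjusted p = 0.0337, edgeR). The sum of 5 neuron markers was also apart, with 308 and 334 CPM in control KD and 373 and 358 CPM in GSTM1 KD in the basal state and 289.6, 293, 351 and 329 CPM after stimulation. The sums of endothelial markers, lower in GSTM1 KD in the basal state, and of ependymal and choroid markers, higher after stimulation, were apart in these states only, and none of these 3 lists held a gene that passed. Of the 2 endothelial markers tested in the basal state, Cdh5 had a log2 fold change of -1.65 and Kdr of 1.39. The part of all these cell type markers in the results below was not tested, and in bulk RNA fewer cells of a type cannot be told apart from less RNA per cell.

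In outline, the receptor chains were present in every library, whereas Ifnb1 was counted only after stimulation. GSTM1 KD astrocytes had less Ifngr2 in the basal state and less Ifnar1 after stimulation than control KD. TNF-α raised Ifngr1 and Ifngr2 in both kinds of astrocyte.

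**Figure D1:**
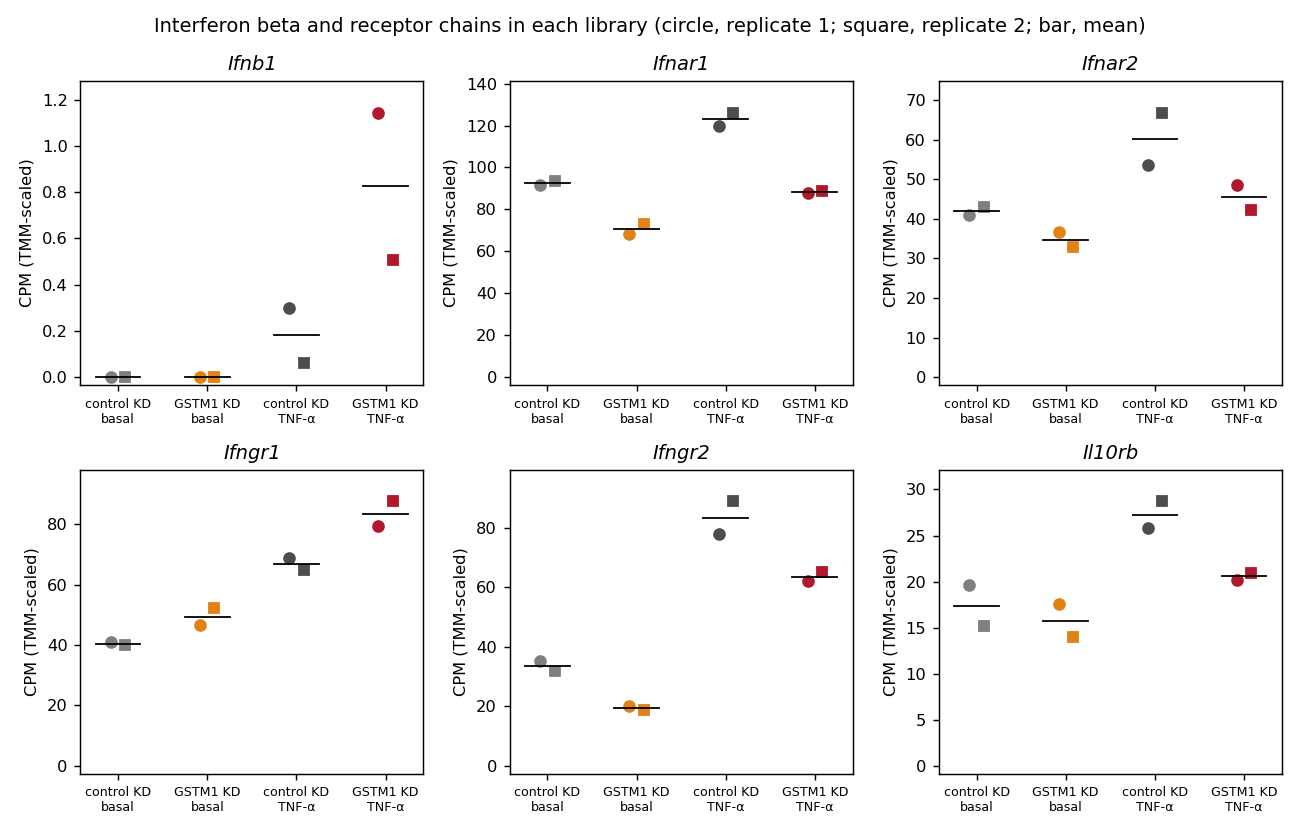
TMM-scaled CPM of the 6 genes (vertical axes, from 0) in the 4 groups (horizontal axes). Each circle (replicate 1) or square (replicate 2) is 1 library and each bar the mean of 2. Ifnb1 is at 0 in all 4 basal libraries, and Ifngr2 has its lowest values, 18.6 and 20.2 CPM, in GSTM1 KD in the basal state.

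The promoter sequences of 3 genes are shown because they set the gene counted only after TNF-α, Ifnb1, beside the receptor chain with the largest response, Ifngr2, and its partner chain Ifngr1. They come from RefSeq on GRCm38.p6, 5′ to 3′ on the strand of the gene, and hold the 250 bases before the start. Of the 6 genes, 5 had a promoter entry. Capitals mark a match to GGAANNNCC, a short form of the NF-κB motif. Ifnb1 lies at chr4:88522795-88523044 on the minus strand, Ifngr2 at chr16:91546809-91547058 and Ifngr1 at chr10:19591699-19591948, both on the plus strand.
Ifnb1: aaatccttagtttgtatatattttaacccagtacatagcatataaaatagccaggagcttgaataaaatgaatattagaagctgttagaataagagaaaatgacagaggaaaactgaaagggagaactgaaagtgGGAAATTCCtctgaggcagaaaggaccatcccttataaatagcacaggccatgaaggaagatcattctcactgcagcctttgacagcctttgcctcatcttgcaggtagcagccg
Ifngr2: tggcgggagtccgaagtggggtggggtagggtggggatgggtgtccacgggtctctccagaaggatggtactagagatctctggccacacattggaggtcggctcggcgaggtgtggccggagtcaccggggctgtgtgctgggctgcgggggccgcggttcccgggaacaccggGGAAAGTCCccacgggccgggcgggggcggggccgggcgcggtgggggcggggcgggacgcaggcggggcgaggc
Ifngr1: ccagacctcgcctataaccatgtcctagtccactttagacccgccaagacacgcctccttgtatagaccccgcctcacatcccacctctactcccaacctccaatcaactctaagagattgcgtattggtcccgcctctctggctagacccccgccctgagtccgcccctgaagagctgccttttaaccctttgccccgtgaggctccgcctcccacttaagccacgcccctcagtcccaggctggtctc

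Both strands of 300-base windows (250 before and 50 after the start) were searched for this motif, for GAAANNGAA, a short form of the interferon-stimulated response element, and for TTCNNNGAA, the site named GAS that STAT dimers bind. The NF-κB letters began 115 bases before the start of Ifnb1, as GGAAATTCC, and 75 bases before that of Ifngr2, as GGAAAGTCC. They were found in 18.5% of all 32851 promoters searched. GAS letters were found in Ifnar1, beginning 5 bases before the start, and in Ifnar2, beginning 214 bases before it, and in 8.3% of all promoters. The letters GAAANNGAA were found in none of the 5 windows and in 8.56% of all promoters, and Ifngr1 held none of the 3 motifs. These letters allow a single spacing, and the printed Ifnb1 sequence holds gaaaactgaaa, a similar repeat with a longer gap. The lack of a match in Ifnb1 therefore does not mean that it has no site for interferon regulatory factors. The letters describe these windows and say nothing of binding.

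Ifnb1 (ENSMUSG00000048806.4) is a gene of 1 exon at chr4:88522025-88522774 (GRCm38, GENCODE annotation, minus strand). It had 0 counts in each of the 2 control KD and 2 GSTM1 KD libraries in the basal state, and a count of 0 allows up to 3 counts (a one-sided 95% limit), or 0.0862 to 0.149 CPM in these libraries. After stimulation control KD had 7 and 1 counts of it (0.300 and 0.0603 CPM) and GSTM1 KD had 25 and 9 (1.14 and 0.509 CPM). The groups were thus apart after stimulation, and both GSTM1 KD libraries were above both control KD libraries, with replicate 1 the higher in each group. The exact 95% Poisson intervals, which cover counting error only, were 2.81 to 14.4 and 0.0253 to 5.57 counts in control KD. In GSTM1 KD they were 16.2 to 36.9 and 4.12 to 17.1 counts. The interval of GSTM1 KD replicate 2 thus overlapped those of both control KD libraries.

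In CPM, Ifnb1 averaged 0.180 ± 0.169 (SD, n = 2) in control KD and 0.826 ± 0.449 (SD, n = 2) in GSTM1 KD after stimulation. The difference, a log2 fold change of 2.06 with an SE of 0.75, did not pass edgeR's quasi-likelihood test (adjusted p = 0.115, by Benjamini-Hochberg over 14593 genes), but passed without the low-count filter (log2 fold change 2.06, adjusted p = 0.0188 in edgeR). With the replicate number as a block in the edgeR fit it was 2.14 and passed (adjusted p = 0.0382). The difference did not pass with all 8 libraries in the edgeR fit (adjusted p = 0.126). DESeq2 gave a log2 fold change of 2.135 with an unadjusted p of 0.0789 and no adjusted p. Ifnb1 reached the low-count filter only through the GSTM1 KD libraries, where it was high. Leaving out 1 library at a time gave log2 fold changes from 1.46 to 3.67; without replicate 1 of GSTM1 KD the gene did not reach the low-count filter. In GSTM1 KD the mean after stimulation was at least 5.94-fold higher than the floor of 3 counts per library in the basal state, and replicate 2 alone was at least 3.66-fold higher. DESeq2 gave the response in GSTM1 KD an adjusted p of 0.0345, and edgeR's quasi-likelihood test 0.102. In edgeR it was 3.46e-05 without the low-count filter and 0.0301 with the block. In control KD, where 1 library was under the floor, the bound was 1.75-fold and rested on replicate 1, which alone gave 2.92-fold. The adjusted p there was 0.287 in edgeR's quasi-likelihood test, 0.0324 in edgeR without the filter and 0.267 in DESeq2.

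Other interferons gave no counterpart to Ifnb1. Of 20 other interferon genes, which include the alpha interferons, Ifng and the type III interferons, 17 were at 0 in all 8 libraries, and the highest value in any library was 3.6 expected counts. The summed markers of T cells and plasmacytoid dendritic cells, both known sources of interferon, were at or below 0.0857 CPM in each library.

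Ifnar1 (ENSMUSG00000022967.13, chr16:91485238-91507441, plus strand) encodes the chain that holds TYK2. It had 91.5 and 93.3 CPM in control KD and 68.0 and 73.1 CPM in GSTM1 KD in the basal state. After stimulation it had 120.0 and 126 CPM in control KD and 87.7 and 88.9 CPM in GSTM1 KD. The GSTM1 KD libraries lay below the control KD libraries in both states, and stimulated GSTM1 KD astrocytes stayed below basal control KD in CPM, while in TPM (43.2 and 46.1 against 44.8 and 45.4) the 2 groups overlapped. After stimulation Ifnar1 was lower in GSTM1 KD (log2 fold change -0.49, SE 0.09, adjusted p = 0.0265 in edgeR's quasi-likelihood test). At the basal level the difference was -0.36 (SE 0.10) and did not pass (adjusted p = 0.0765 in the same edgeR test). It passed in edgeR without the low-count filter (adjusted p = 0.0410), with all 8 libraries in the fit (0.0236) and with the replicate number as a block (0.0151). In DESeq2 this basal difference did not pass (adjusted p = 0.0889). Without replicate 2 of control KD the log2 fold change was -0.36. The call after stimulation was lost without either GSTM1 KD library (log2 fold changes -0.46 and -0.50, adjusted p = 0.203 without replicate 1 and 0.237 without replicate 2, edgeR), and with 1 GSTM1 KD library left, 0 genes passed without replicate 1, and 63 higher and 31 lower without replicate 2.

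Ifnar2 (ENSMUSG00000022971.18, chr16:91372783-91405589, plus strand) encodes the chain that binds interferon beta tightly and docks STAT2. It had 41.0 and 42.9 CPM in control KD and 36.7 and 32.9 CPM in GSTM1 KD in the basal state. After stimulation it had 53.6 and 66.8 CPM in control KD and 48.5 and 42.2 CPM in GSTM1 KD. The groups did not overlap in either state, with GSTM1 KD the lower, but neither difference passed edgeR's quasi-likelihood test (log2 fold change -0.24, SE 0.12, adjusted p = 0.214 in the basal state, and -0.41, SE 0.14, adjusted p = 0.0985 after stimulation). The difference after stimulation passed in edgeR without the low-count filter (adjusted p = 0.0233) but not in DESeq2 (adjusted p = 0.118). Its log2 fold change was -0.55 without replicate 1 of control KD and -0.25 without replicate 2 of control KD.

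Ifngr1 (ENSMUSG00000020009.13, chr10:19591949-19610229, plus strand) encodes the ligand-binding chain of the interferon gamma receptor. It had 41.0 and 39.9 CPM in control KD and 46.6 and 52.1 CPM in GSTM1 KD in the basal state. After stimulation it had 68.7 and 64.8 CPM in control KD and 79.5 and 87.5 CPM in GSTM1 KD. It was the single receptor chain of the 5 with its GSTM1 KD libraries above control KD, in both states without overlap. The log2 fold change was 0.31 in each state (SE 0.12, adjusted p = 0.132 in the basal state, and SE 0.10, adjusted p = 0.0928 after stimulation), and neither passed edgeR's quasi-likelihood test. With all 8 libraries in the edgeR fit, the difference after stimulation was 0.34 and passed (adjusted p = 0.0489). In DESeq2 it did not pass (adjusted p = 0.178).

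Ifngr2 (ENSMUSG00000022965.8, chr16:91547072-91565623, plus strand) encodes the signal-transducing chain, the partner of IFNGR1 that brings JAK2. It had 35.1 and 31.9 CPM in control KD and 20.2 and 18.6 CPM in GSTM1 KD in the basal state. After stimulation it had 77.9 and 88.9 CPM in control KD and 62.1 and 65.1 CPM in GSTM1 KD. The GSTM1 KD libraries were the lower in both states, and each stimulated library lay above each basal one. In the basal state Ifngr2 was lower in GSTM1 KD (log2 fold change -0.76, SE 0.13, 0.589-fold, adjusted p = 0.0290 in edgeR's quasi-likelihood test). After stimulation the log2 fold change was -0.40 (SE 0.10) and the adjusted p 0.0543 in the same edgeR test. It fell to 0.0216 without the low-count filter, 0.0404 with all 8 libraries in the fit and 0.0181 with the replicate number as a block. DESeq2 gave an adjusted p of 0.0724. Without replicate 1 of control KD the log2 fold change was -0.48.

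The following values bear on these calls of Ifngr2. The basal call was lost without either GSTM1 KD library (log2 fold changes -0.82 and -0.72, edgeR adjusted p = 0.153 without replicate 1 and 0.255 without replicate 2), where 1 and 3 of all genes passed. The effective length of Ifngr2, the mean length of its transcripts weighted by their abundance, ran from 2276 to 3157 bases between libraries, and with these lengths as offsets the difference after stimulation was -0.50 with an adjusted p of 0.0439 in edgeR.

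Il10rb (ENSMUSG00000022969.13, chr16:91406164-91425834, plus strand) had 19.6 and 15.2 CPM in control KD and 17.5 and 14.0 CPM in GSTM1 KD in the basal state, where the groups overlapped but GSTM1 KD was the lower within each replicate number. After stimulation it had 25.8 and 28.7 CPM in control KD and 20.1 and 21.0 CPM in GSTM1 KD, with no overlap. The log2 fold change was -0.12 (SE 0.20, adjusted p = 0.724) in the basal state and -0.42 (SE 0.13, adjusted p = 0.0761) after stimulation in edgeR's quasi-likelihood test.

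Of the 5 genes tested in the basal state, 1 was called lower and 0 higher, against 5.62% lower and 4.6% higher of all 14899 genes tested, and 4 had groups that did not overlap, against 63.6% of all genes. Of the 6 tested after stimulation, 1 was called lower and 0 higher, against 8.92% and 7.26% of all 14593 genes, and 6 had groups that did not overlap, against 66.6%. Unadjusted p-values under 0.05 were found for 3 of 5 in the basal state and 6 of 6 after stimulation, against 31.6% and 36.2% of all genes. A lack of overlap between the knockdowns was thus common among all genes, and the calls are read only beside these shares.

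**Figure D2:**
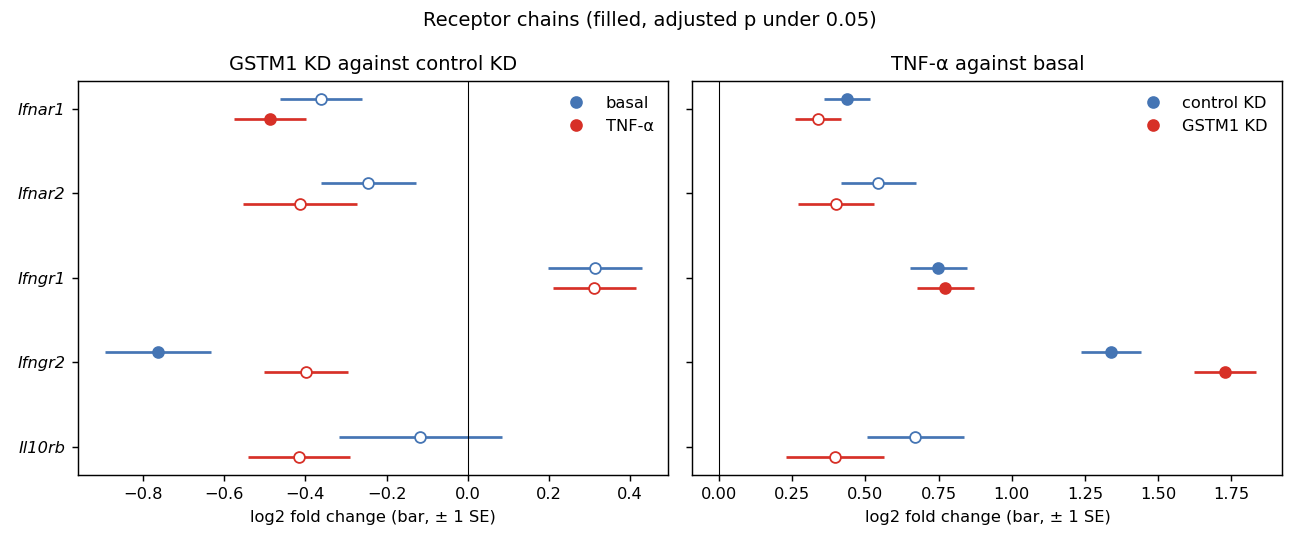
Log2 fold changes (horizontal axes, ± 1 SE from edgeR) of the 5 receptor chains (vertical axis), for GSTM1 KD against control KD in both states (left) and for TNF-α against basal in both knockdowns (right). Filled points passed an adjusted p of 0.05. Ifngr1 lies above 0 on the left, at 0.31 in both states, and the other 4 chains lie below 0.

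TNF-α raised Ifngr2 most among the receptor chains. In control KD its mean went from 33.5 ± 2.23 to 83.4 ± 7.73 CPM (SD, n = 2), a log2 fold change of 1.34 (SE 0.10, adjusted p = 0.00148 in edgeR's quasi-likelihood test). In GSTM1 KD it went from 19.4 ± 1.11 to 63.6 ± 2.09 CPM, a log2 fold change of 1.73 (SE 0.11, adjusted p = 0.000578). Ifngr2 in stimulated GSTM1 KD astrocytes stayed below its level in stimulated control KD astrocytes, although the fold from its own basal level was 3.31 against 2.53.

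Ifngr1 rose by a similar measure in both: the log2 fold change was 0.75 (SE 0.10, adjusted p = 0.0108) in control KD and 0.77 (SE 0.10, adjusted p = 0.00819) in GSTM1 KD in edgeR's quasi-likelihood test. Ifnar1 rose in control KD (0.44, SE 0.08, adjusted p = 0.0362), whereas in GSTM1 KD the value was 0.34 (SE 0.08, adjusted p = 0.0964). For Ifnar2 the log2 fold changes were 0.54 (SE 0.13, adjusted p = 0.0884) and 0.40 (SE 0.13, adjusted p = 0.258), and for Il10rb 0.67 (SE 0.16, adjusted p = 0.0993) and 0.40 (SE 0.17, adjusted p = 0.449). With the replicate number as a block in edgeR, Ifnar2 and Il10rb in control KD (adjusted p = 0.0499 and 0.0437) and Ifnar1 in GSTM1 KD (0.0262) passed. That fit called 652 of 15332 genes higher in control KD and 613 in GSTM1 KD, against 322 and 361 without the block. The 5 receptor chains had stimulated libraries above the basal ones without overlap in both knockdowns, and so had Ifnb1 in GSTM1 KD, while its 1 count in replicate 2 of stimulated control KD was under the floor. By comparison, 35.1% of all genes in control KD and 44.8% in GSTM1 KD did not overlap.

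In edgeR's quasi-likelihood test over 15332 genes, 3 of 6 passed as higher in control KD and 2 of 6 in GSTM1 KD. Of all genes, 2.1% passed as higher and 0.528% as lower in control KD, while the shares were 2.35% and 0.294% for GSTM1 KD. DESeq2 called 5 of 6 in control KD, the 5 receptor chains, against 3.16% of all genes higher, and 3 of 6 in GSTM1 KD, which were Ifngr1, Ifngr2 and Ifnb1, against 3.07%. The calls of Ifnar1 and Ifngr1 in control KD were lost when only the 4 control KD libraries were fitted (adjusted p = 0.223 and 0.0917 in edgeR), with log2 fold changes of 0.44 and 0.76. Ifnar1 in control KD also lost its call without any 1 of the 4 control KD libraries, at log2 fold changes from 0.42 to 0.46. Ifngr1 in control KD lost it without replicate 2 of the basal ones, at 0.74. In GSTM1 KD, Ifngr1 lost its call without either basal library (log2 fold changes 0.69 and 0.86) and without replicate 2 of the stimulated ones (0.70).

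Whether GSTM1 KD altered the response to TNF-α was tested as the difference of the 2 responses. For Ifngr2 it was 0.39 (SE 0.14, 95% normal interval from 0.11 to 0.67), with an unadjusted p of 0.0296 and an adjusted p of 1 in edgeR's quasi-likelihood test. The differences of the other chains were -0.10 (interval -0.32 to 0.12) for Ifnar1, -0.14 (-0.50 to 0.21) for Ifnar2, 0.02 (-0.25 to 0.29) for Ifngr1 and -0.27 (-0.73 to 0.18) for Il10rb. No gene of the 15332 (0.0%) passed in edgeR, 295 had an unadjusted p under 0.05, and DESeq2 called 27 genes (0.156%), none of them one of these 6.

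Levels of different genes are compared in TPM, which is per length. In control KD in the basal state the order was Ifnar2 (69.0 ± 1.80), Ifnar1 (45.1 ± 0.424), Ifngr1 (36.7 ± 0.530), Ifngr2 (22.3 ± 1.98) and Il10rb (18.8 ± 2.43 TPM, SD, n = 2), with Ifnb1 at 0. In GSTM1 KD in the basal state it was Ifnar2 (57.0 ± 3.63), Ifngr1 (47.7 ± 3.73), Ifnar1 (36.3 ± 1.55), Il10rb (18.3 ± 2.79) and Ifngr2 (12.4 ± 1.09 TPM). Ifngr1 thus stood above Ifnar1, and Ifngr2 below Il10rb, in both GSTM1 KD libraries and in the reverse order in both control KD libraries.

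After stimulation the order in control KD was Ifnar2 (92.8 ± 11.3), Ifngr1 (61.3 ± 4.46), Ifnar1 (59.2 ± 0.269), Ifngr2 (52.8 ± 2.33), Il10rb (29.0 ± 1.88) and Ifnb1 (0.595 ± 0.559 TPM), and the ranges of Ifngr1 and Ifnar1 overlapped. In GSTM1 KD it was Ifngr1 (80.2 ± 6.36), Ifnar2 (67.7 ± 9.33), Ifnar1 (44.6 ± 2.09), Ifngr2 (38.9 ± 2.72), Il10rb (23.2 ± 1.47) and Ifnb1 (2.82 ± 1.51 TPM). Every other pair of neighbours in these orders was apart in its 2 libraries, which is a description of 2 values each.

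**Figure D3:**
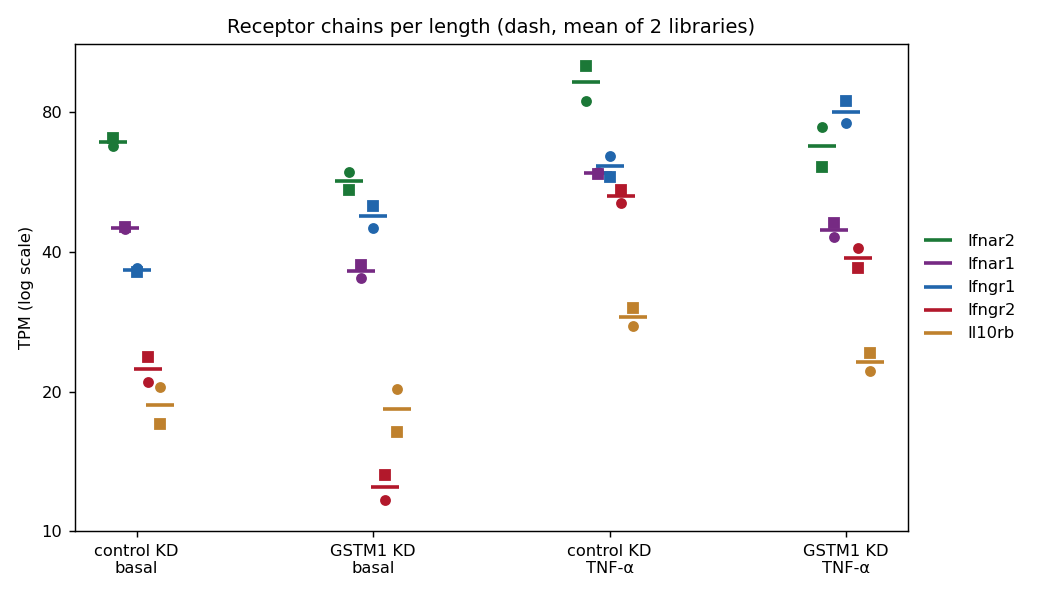
TPM of the 5 receptor chains (vertical axis, log scale) in the 4 groups (horizontal axis). Circles are replicate 1, squares replicate 2 and dashes the mean of 2 libraries. Ifngr1, at 36.7 TPM below Ifnar2 and Ifnar1 in basal control KD, is above both in stimulated GSTM1 KD, at 80.2 TPM.

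The balance of the 2 chains of the interferon gamma receptor followed from these opposite differences. The TPM of Ifngr1 was 1.77 and 1.53 times that of Ifngr2 in control KD in the basal state and 3.87 and 3.81 times in GSTM1 KD. After stimulation the ratio was 1.26 and 1.07 for control KD, against 1.86 and 2.29 for GSTM1 KD. No 2 of the 4 groups overlapped in this ratio: it was lower after stimulation in both knockdowns, and higher in GSTM1 KD in both states. Such separation was not particular to this pair, since Ifnar1 over Ifngr1, from different receptors, also kept the 4 groups apart. Basal libraries ranged over 1.21 to 1.25 (control KD) against 0.743 to 0.781 (GSTM1 KD). Stimulated ones ranged over 0.922 to 1.02 against 0.544 to 0.570. Groups overlapped for Ifngr1 over Il10rb, and the share of all gene pairs that separate was not tested. The ratio of Ifnar2 to Ifnar1 lay between 1.32 and 1.72 in all 8 libraries, and its groups overlapped.

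Ifnar2, Il10rb, Ifnar1 and Ifngr2 lie in this order in a single cluster on chromosome 16, within 193 kb, and Ifngr1 lies apart on chromosome 10. All 4 clustered genes had negative log2 fold changes in GSTM1 KD in both states, of which 1 in each state passed. Of 9 neighbours, Tmem50b, which follows Ifngr2 on the other strand, was higher in GSTM1 KD (1.45 with an adjusted p of 0.0161 in the basal state and 1.48 with 0.0109 after stimulation, edgeR's quasi-likelihood test). Olig2, a transcription factor of the oligodendrocyte lineage that some astrocytes also express, was lower (-0.85, adjusted p = 0.0251, and -1.14, adjusted p = 0.0102, same edgeR test). Olig1, its paralog, was lower after stimulation (-0.44, adjusted p = 0.0497, edgeR) and had -0.40 (adjusted p = 0.0830, edgeR) in the basal state. Dnajc28, Gart, Son, Donson, Cryzl1 and Itsn1 had values between -0.14 and 0.17 and did not pass. No neighbour rose after TNF-α in either knockdown, and Olig2 fell in GSTM1 KD (-0.67, adjusted p = 0.0310, edgeR).

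**Figure D4:**
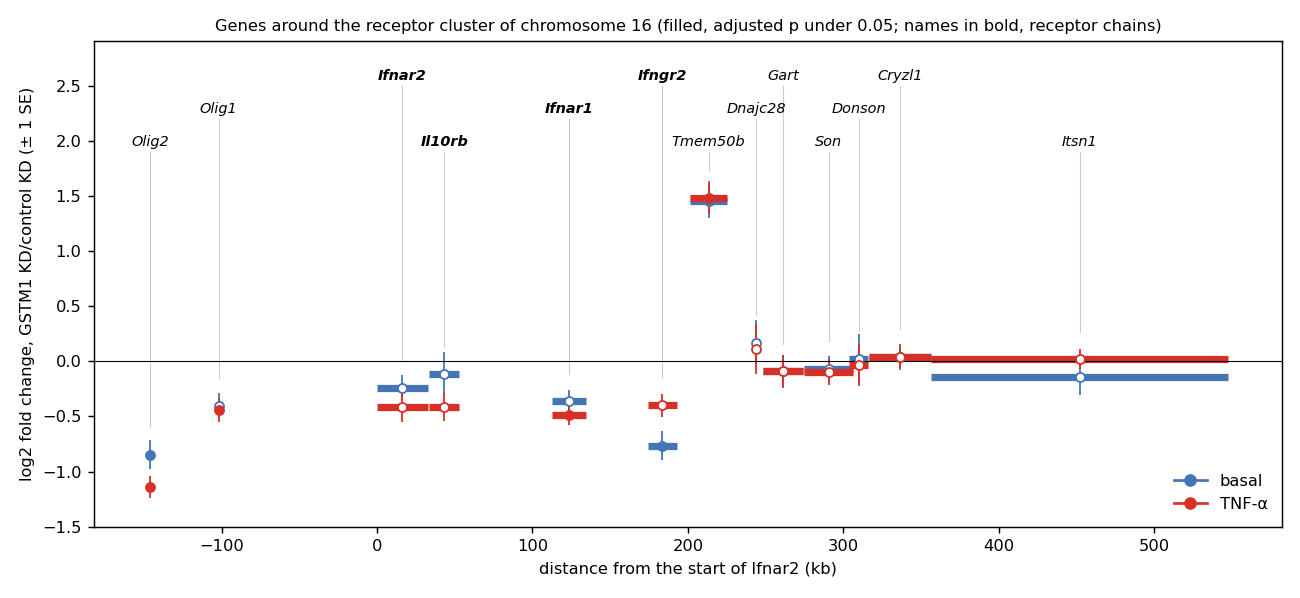
Log2 fold change of GSTM1 KD against control KD (vertical axis, ± 1 SE) for the 4 receptor chains of the chromosome 16 cluster and 9 neighbours, at their distance from the start of Ifnar2 (horizontal axis, kb). Horizontal bars span each gene, and filled points passed an adjusted p of 0.05. Tmem50b, at 1.45 and 1.48, lies next to Ifngr2, at -0.76 and -0.40.

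The exons of Ifnar2 and Il10rb overlap a readthrough gene on the same strand. It held 0 counts in 7 libraries and 2.09 in replicate 2 of control KD in the basal state, so few reads were assigned to it.

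Of the other receptor chains of this family, Ifnlr1, the specific chain of the type III interferon receptor that pairs with IL10RB, had between 0.301 and 0.728 CPM in the 8 libraries. Il10ra, the specific chain for IL-10, and Il20ra had 2 or fewer counts in each library, Il22ra1 had 0 in all, and Il20rb had between 0.248 and 0.848 CPM. None of these 5 chains thus reached 1 CPM in a library. F3, tissue factor, the coagulation receptor of the same structural family, was lower in GSTM1 KD (log2 fold change -1.02, adjusted p = 0.0192 in the basal state and -1.15, adjusted p = 0.0190 after stimulation, edgeR's quasi-likelihood test).

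The kinases and STATs that act on these receptors were measured in all groups. In the basal state 0 of the 6 reported passed in edgeR's quasi-likelihood test (0 had an unadjusted p under 0.05, and DESeq2 called 0). Of all genes, 4.6% were higher and 5.62% lower in that state in edgeR. After stimulation 2 of 6 were higher in GSTM1 KD and 1 lower, against 7.26% and 8.92% of all genes, and the median log2 fold change was 0.05 against -0.01 over all genes. Stat2 had 56.5 and 67.0 CPM in control KD and 185 and 104 CPM in GSTM1 KD (log2 fold change 1.22, adjusted p = 0.0413, edgeR). Irf9, its partner, was also higher (1.07, adjusted p = 0.0178), and Jak2, the kinase of IFNGR2, was lower (-0.44, adjusted p = 0.0385, edgeR).

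Jak1 (0.13, adjusted p = 0.460) and Tyk2 (-0.14, adjusted p = 0.575, edgeR) did not pass. TNF-α itself raised Tyk2 (log2 fold change 1.05, adjusted p = 0.0151), Jak2 (0.86, adjusted p = 0.0260) and Irf9 (0.74, adjusted p = 0.0434) in control KD in edgeR's quasi-likelihood test. In GSTM1 KD it raised Irf9 (1.74, adjusted p = 0.00162), Stat2 (2.85, adjusted p = 0.00421) and Tyk2 (1.03, adjusted p = 0.0159, edgeR).

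Among 10 inhibitors of receptor signalling, 1 was higher and 2 lower in GSTM1 KD after stimulation, where 7.26% of all genes were higher and 8.92% lower. Usp18, which binds IFNAR2 and damps type I signalling, was higher (log2 fold change 1.57, adjusted p = 0.0387), and Pias1, an inhibitor of STAT signalling (-0.49, adjusted p = 0.0420), and Fbxw11, a subunit of a ubiquitin ligase (-0.39, adjusted p = 0.0498), were lower in edgeR's quasi-likelihood test. At the basal level only Pias1 of the 10 passed, as lower (-0.49, adjusted p = 0.0453, edgeR), where 5.62% of all genes were lower and 4.6% higher.

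The genes that lead to Ifnb1 transcription moved in both directions. Of 20, 5 were higher and 4 lower in GSTM1 KD after stimulation, against 7.26% and 8.92% of all genes, with a median of -0.18. Ddx58 (RIG-I; log2 fold change 1.35, adjusted p = 0.0170) and Ifih1 (MDA5; 1.26, adjusted p = 0.0272), sensors of viral RNA that are themselves interferon targets, were higher. Hmga1, an architectural protein of the Ifnb1 enhancer (-1.65, adjusted p = 0.0132), and Rela, the p65 subunit of NF-κB (-0.76, adjusted p = 0.0153, edgeR's quasi-likelihood test), were lower. Both were also the 2 genes of the 20 that passed in the basal state, as lower (-1.86, adjusted p = 0.0179, and -0.61, adjusted p = 0.0270, edgeR). In that state 5.62% of all genes were lower and 4.6% higher.

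More than 1 in 2 of the type I targets of the receptors were higher in GSTM1 KD after stimulation. Of 24 type I interferon targets 17 were higher and 0 lower (median log2 fold change 1.48), and of 12 type II targets 6 were higher and 0 lower, with a median of 1.33, against 7.26% higher and 8.92% lower of all genes and a median of -0.01. Many of these genes answer to both interferons, and Iigp1, Irgm1 and Irgm2 are induced by either. Cmpk2, an antiviral nucleotide kinase, had 54.9 and 85.0 CPM in control KD and 465 and 216 CPM in GSTM1 KD (log2 fold change 2.28, adjusted p = 0.0250, edgeR's quasi-likelihood test). The other type I targets with the smallest p-values were Ifi27 (0.69), Ifit3b (2.04) and Rtp4 (1.38), and the type II targets were Iigp1 (2.52), H2-Ab1 (1.98), Irgm2 (1.59) and Irgm1 (1.47).

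Replicate 1 of GSTM1 KD after stimulation, the library with 25 counts of Ifnb1, also had the higher Stat2 and Cmpk2 of its group. Without this library no gene of all 14822 tested passed in edgeR (3273 had an unadjusted p under 0.05), so that fit could call no target. The median log2 fold changes of the targets in it were 0.99 for type I, with 22 of 24 above 0, and 0.98 for type II, with 10 of 12 above 0. Without replicate 2 of GSTM1 KD they were 1.89 and 1.53, and 14 and 4 targets passed. The medians of these lists are descriptions, and the lists were drawn up with earlier results of these libraries known.

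**Figure D5:**
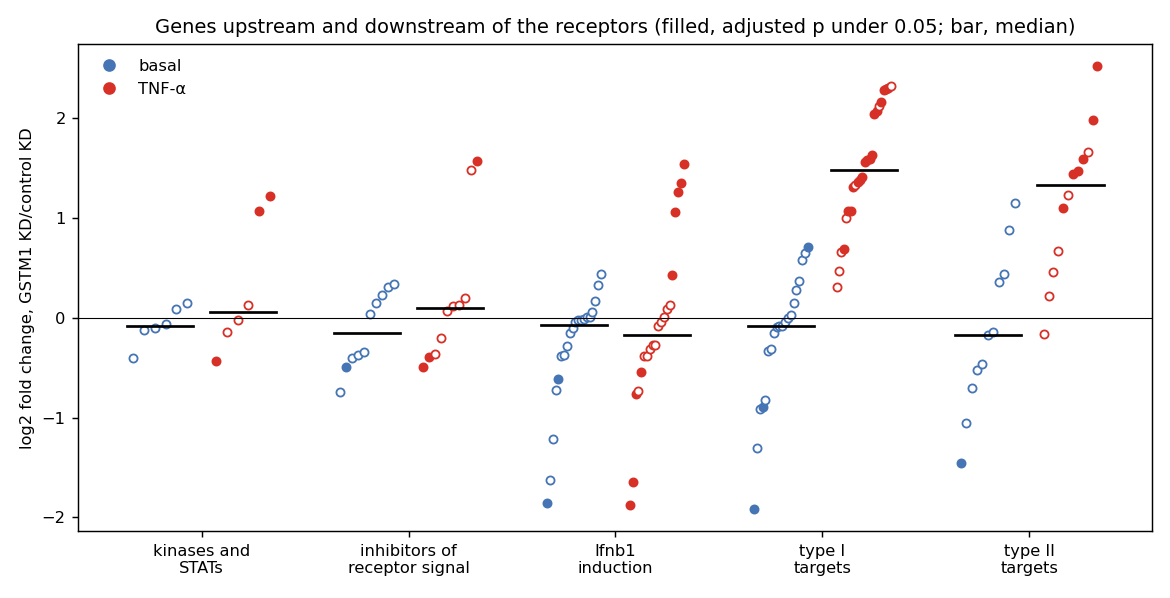
Log2 fold change of GSTM1 KD against control KD (vertical axis) for each gene of 5 lists around the receptors (horizontal axis), in the basal state and after stimulation. Each point is a gene, filled where it passed an adjusted p of 0.05, and each bar is the list's median. The medians of type I and type II targets are -0.08 and -0.17 in the basal state and 1.48 and 1.33 after stimulation.

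At the basal level 1 of 20 type I targets tested was higher and 2 were lower, with a median of -0.08, and of 11 type II targets 0 were higher and 1 was lower, with a median of -0.17. Of all genes 4.6% were higher and 5.62% lower, with a median of -0.0020, so the counts of these lists lay near the background. Ifi27 was higher (0.71, adjusted p = 0.0377), and Ifit1 (-0.89, adjusted p = 0.0385), Oasl1 (-1.92, adjusted p = 0.0456) and Cxcl10 (-1.45, adjusted p = 0.0476, edgeR's quasi-likelihood test) were lower. Of 31 targets tested in both states, 9 had GSTM1 KD libraries below control KD in the basal state and above it after stimulation, without overlap. This was so for 106 of 14379 genes (0.737%). The difference of responses had an adjusted p of 1 in edgeR for each of the 9, and DESeq2 called the difference of responses of 7 of 24 type I and 5 of 12 type II targets, all higher in GSTM1 KD, against 0.156% of all genes.

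TNF-α raised 13 of 24 type I and 8 of 12 type II targets in control KD and 20 of 24 and 11 of 12 in GSTM1 KD, and lowered 0, where 2.1% and 2.35% of all genes were higher. Cxcl10, a chemokine of the interferon response, rose most clearly by its p-value in both (log2 fold change 6.41, adjusted p = 0.000450 in control KD, and 8.35, adjusted p = 0.000255 in GSTM1 KD, edgeR's quasi-likelihood test). Both responses are set against separate basal libraries, and the difference between them is the test given above.

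The genes with profiles most like each of the 6 were found over all 8 libraries, as the smallest root mean square (RMS) difference of centred log2 CPM among 15332 genes. This is a description, and libraries of a group share their treatment. For Ifnb1 these were Phf11c (0.30), Isg15 (0.34) and Ifi44 (0.34), where the profile of Ifnb1 itself has an RMS of 1.42. Ifnb1 reached the low-count filter only through stimulated GSTM1 KD (1.14 and 0.509 CPM), and its basal libraries were at 0. Its profile is therefore mostly that 1 group, and a likeness to genes highest there is no result about Ifnb1. Isg15, a ubiquitin-like protein, and Ifi44 are type I interferon targets, both on the list above. For Ifnar1 they were Hk2 (hexokinase 2; 0.04), Smurf1 and Sin3a (0.06 each), for Ifnar2 Akap2, Fmnl2 and Asap1 (0.06 to 0.07), and for Il10rb Adamts5, Grpel2 and Wdr36 (0.09 to 0.11). For Ifngr1 they were Slc4a7, Eml5 and Pced1b (0.09 to 0.13) and for Ifngr2 Chst15, Prrx1 and Bid (0.17 to 0.18), and no list of 3 held another of the 6.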

How the data were processed

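RNA-seq was analysed in 8 libraries, each mapped from its labels to 1 of 4 groups of 2. The authors mapped reads to GRCm38 with STAR (version 2.5.4b) and quantified genes with RSEM (version 1.3.0), per the labels and the study's methods. The deposited expected counts are estimates by RSEM and need not be whole. The deposited TPM values are scaled per length and library. The deposited effective lengths, in bases, are used as another kind of value. The annotation release, and whether counting used the strand of these directional libraries, are not given in the sources used here. The deposited FPKM column was not used.

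Expected counts were rounded. edgeR (version 4.0.16, R version 4.3.3) was used with TMM scaling and filterByExpr, and p-values of its quasi-likelihood test were adjusted by Benjamini-Hochberg over every gene tested, with 0.05 as threshold. The 2 knockdowns were compared within each state, from its 4 libraries. Responses to TNF-α and their difference used all 8, so comparisons share libraries. SEs were worked back from the log2 fold change and the F statistic of the test. Intervals are 95% normal intervals of 1.96 SE, which do not allow for the few degrees of freedom and are therefore too narrow. With 2 against 2 libraries the smallest exact two-sided p is 0.333, so p-values come only from models across all genes, edgeR and DESeq2 (version 1.42.0). The study calls the replicates biological. Whether they came from separate cultures is not given, and p-values measure the spread between these libraries, which may be technical.

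Named genes are the 6 genes, and of each list up to 4 with the smallest p that passed, the kinases, STATs and Irf9, 5 receptor chains, the chromosome 16 neighbours and the 3 most similar genes (log2 CPM with a prior count of 2). The genes and lists were chosen with earlier results of these data known. A gene of these lists is not reported here and was left out of its list. Pathway lists were other interferons, other receptors of the family, kinases and STATs, inhibitors, Ifnb1 induction, and type I and type II targets. Gene positions are from GENCODE and promoters from RefSeq. The fits were tested on simulated counts. Figures were drawn with matplotlib (version 3.10.9), and tables with Python (version 3.11.15) and pandas (version 2.3.3). Alternatives were DESeq2 itself, its size factors within edgeR, plain library sizes, no low-count filter, a minimum of 10 counts in every library, a replicate block, effective-length offsets, 8 or 4 libraries, TPM for levels, and leaving out each library; their use for the target lists was chosen after seeing the data.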

Additional observations from a re-analysis of the deposited data

How the results depend on the processing

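With 2 libraries per group the calls move with the fit. At the basal level, where 1 of the 6 genes was called in GSTM1 KD against control KD, 2 were called with no low-count filter, with the replicate block and with all 8 libraries, and 0 to 2 without 1 library. After stimulation, where 1 was called, 4 were called with no filter, 3 with the replicate block, 2 with effective-length offsets and 3 with all 8 libraries, and 0 to 3 without 1 library. For the response in control KD (3 called) the counts were 5 with DESeq2, 6 with no filter, 5 with the block, 1 with only the 4 control KD libraries and 1 to 2 without 1 library, and in GSTM1 KD (2 called) 3 with DESeq2, 3 with no filter, 4 with the block and 1 to 2 without 1 library. Numbers called among all genes are not given for every one of these fits, so the counts are not read as a result about the 6 genes. Fits without 1 library assume that the lone sample varies like the other groups.

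Directions reversed for Il10rb in the basal state, at 0.0795 without replicate 1 of control KD and 0.0227 without replicate 2 of GSTM1 KD (range over the fits without 1 library -0.296 to 0.0795), and for the difference of responses of Ifngr1, at -0.00077 with at least 10 counts in every library and at -0.0598 to 0.106 over the fits without 1 library; neither was called in any of these. From mean TPM instead of CPM, the log2 difference of Ifnar1 was -0.31 in the basal state and -0.41 after stimulation. The type II targets higher in GSTM1 KD after stimulation numbered 10 with no filter and 0 to 10 without 1 library, and the type I targets 0 to 19. The causes were not tested beyond fewer samples or genes entering the fit.

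Replicate numbers were checked as pairs: the deviations of same-numbered libraries from their group means correlated by 0.165 to 0.575 over the 6 pairs of groups. Libraries of the same number thus deviated alike to some degree in each pair of groups. Only 2 numbers exist and no label says what they mark, so the block is given as an alternative. With the block in edgeR, the added calls were Ifnar1 in the basal state (adjusted p = 0.0151), Ifnb1 and Ifngr2 after stimulation (0.0382 and 0.0181), Ifnar2 and Il10rb in the control KD response (0.0499 and 0.0437) and Ifnar1 and Ifnb1 in the GSTM1 KD response (0.0262 and 0.0301), and the log2 fold change of Ifnb1 after stimulation was 2.14. The block also called more of all genes. In the basal state 2370 were lower and 2342 higher, against 838 and 686 without it. After stimulation 2238 were lower and 2064 higher, against 1301 and 1059. For the responses 652 were higher in control KD and 613 in GSTM1 KD, against 322 and 361. Counts of Ifnb1, at most 25 in a library, limit what its comparison can show.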
